A study of Homo sapiens with 4 samples.

Results

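The genes described here are 50 antiviral effectors that interferon switches on, chosen by symbol and matched through their Entrez identifiers to the rows of 4 RNA-seq gene tables. They were chosen with earlier results of these data known. Shares set beside those of all genes are therefore descriptions and no independent support. Of the 50, 49 were listed in every table, among 17010 genes listed for the plasmid pair of libraries and 16856 used for the siRNA pair; EPSTI1 had no row and is not analysed here. The cells are labelled HepG2, a hepatoblastoma-derived human cell line. The groups were cells transfected with a FLAG-tagged JFK plasmid (JFK is the older name of FBXO42, an F-box protein of a ubiquitin ligase), cells transfected with the empty vector, cells given an siRNA against ING5 (a subunit of histone acetyltransferase complexes), and cells given a control siRNA. Each group held 1 library, so no fold below has been checked against replicate spread and no test across genes was possible. Both controls were themselves transfected.

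Interferons bind receptors at the cell surface and, through the kinases JAK1 and TYK2, activate transcription factors, among them STAT2 and IRF9, which bind a short DNA element, the interferon-stimulated response element, in front of the effector genes. A part of these genes can also be switched on directly by IRF3 after viral RNA or DNA is sensed inside the cell. Their products bind or degrade viral RNA, block virus entry and release, attach the ubiquitin-like protein ISG15 to other proteins, or damp the response itself.

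The DNA in front of the genes was read first, from RefSeq windows of build GRCh38.p14 that hold 250 bases before and 50 bases after each annotated start; 42 of the 50 members matched this table. The core of the response element, searched as GAAANNGAAA on both strands, was found in a window of 30 of the 42 members (71.4%), against 4.38% of the 27305 genes in the table. The shorter STAT-type element TTCNNNGAA, whose matches can share bases with the first, was found in 13 of the 42 (31.0%), against 9.38% of all genes. A match describes the letters and is no evidence of a bound site. The 250 bases before the start are given for members on which the results turn: IFIT3, whose counting intervals lay below 0 in both comparisons, RSAD2, the lowest member under ING5 siRNA, ISG15, whose folds differed in sign between the comparisons, IFI6, which had the most counts in the empty vector library, and PARP9, whose window shares its match with its neighbour DTX3L. Capitals mark matches to the response element core on either strand; those of ISG15 overlap.

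IFIT3, chr10:89327747-89327996, + strand: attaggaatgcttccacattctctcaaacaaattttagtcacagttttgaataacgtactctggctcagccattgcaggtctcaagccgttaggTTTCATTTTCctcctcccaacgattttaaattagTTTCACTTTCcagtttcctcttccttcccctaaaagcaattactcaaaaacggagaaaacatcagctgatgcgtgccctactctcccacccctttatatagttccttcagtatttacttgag

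RSAD2, chr2:6877527-6877776, + strand: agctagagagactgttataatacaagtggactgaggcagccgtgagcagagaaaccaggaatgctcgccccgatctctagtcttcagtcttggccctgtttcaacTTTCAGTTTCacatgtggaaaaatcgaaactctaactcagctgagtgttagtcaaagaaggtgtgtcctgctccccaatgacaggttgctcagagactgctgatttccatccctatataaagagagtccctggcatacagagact

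ISG15, chr1:1013247-1013496, + strand: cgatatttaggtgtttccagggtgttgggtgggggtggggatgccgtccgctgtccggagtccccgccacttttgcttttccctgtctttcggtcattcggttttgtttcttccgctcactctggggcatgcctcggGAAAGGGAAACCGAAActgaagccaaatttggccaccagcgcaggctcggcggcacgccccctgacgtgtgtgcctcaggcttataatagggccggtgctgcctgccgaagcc

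IFI6, chr1:27672193-27672442, - strand: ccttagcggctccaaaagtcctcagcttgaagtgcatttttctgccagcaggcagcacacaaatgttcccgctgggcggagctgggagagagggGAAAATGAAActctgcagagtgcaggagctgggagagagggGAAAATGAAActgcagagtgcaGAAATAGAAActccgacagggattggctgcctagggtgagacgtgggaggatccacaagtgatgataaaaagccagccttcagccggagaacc

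PARP9, chr3:122564301-122564550, - strand: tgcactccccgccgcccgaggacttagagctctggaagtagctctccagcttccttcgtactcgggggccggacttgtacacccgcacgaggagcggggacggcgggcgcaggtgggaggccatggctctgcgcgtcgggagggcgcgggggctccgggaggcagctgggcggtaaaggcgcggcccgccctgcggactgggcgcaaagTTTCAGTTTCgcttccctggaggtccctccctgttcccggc

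RefSeq gives 2 windows each for IFIT3, RSAD2 and PARP9, of which 1 is shown; the other IFIT3 window has its first match at -94, and the other windows of RSAD2 and PARP9 have none. In the windows shown the first match began at position -156 relative to the start in IFIT3, -145 in RSAD2, -113 in ISG15, -156 in IFI6 and -41 in PARP9. The PARP9 match lies at chr3:122564332-122564341, and the single match in the DTX3L window, which is read from the other strand, covers the same bases. Neither XAF1, the lowest measured member in the plasmid pair, nor OAS1 had a match in its windows. The search allowed only 2 bases between the GAAA repeats. GAAACGAAA, with 1 base between them, stands in the OAS1 window and in the other RSAD2 window. Members with a match had a median log2 fold of −0.36 in the plasmid pair, with intervals below 0 in 18 of 29, and those without one −0.38, with intervals below 0 in 10 of 11. In the siRNA pair the medians were −0.43 with a match (14 of 27 below 0) and −0.46 without (6 of 9 below 0). The members without a match include OAS1 and PNPT1, whose windows hold GAAACGAAA. The split therefore does not part members with a response element from members without one. The difference between these sets was not tested. The split leaves out IFIT2, OASL, OAS2, MX2, USP18, TRIM22, IFITM2 and PARP10, the 8 members without a window. OASL and IFIT2 were among the lowest members under ING5 siRNA, and MX2, OAS2 and TRIM22 among the lowest in the plasmid pair.

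Read depth and the labels were checked once. The tables summed to 7237325 counts for the library labelled JFK, 7179365 for vector, 9030075 for ING5 siRNA and 9196979 for control siRNA. FBXO42 had 115 counts in the library labelled JFK, against 116 in vector, so the transcript level does not bear out that label and the wording "the library labelled JFK" is kept throughout. ING5 had 81 counts in ING5 siRNA against 144 in control siRNA, which is 56.9% after scaling. Of 9 hepatocyte genes only HNF4A reached 20 counts in each library, with 51 to 91, while ALB, TTR and TF had no row (not analysed here), so the hepatocyte genes do not bear out the labelled line and the cells are called as labelled. Of 6 leukocyte genes only LYZ reached 20 counts, and only in the plasmid pair (72 in the library labelled JFK, against 115 in vector); PTPRC had at most 8 and CD14 at most 4, CD3E had no row, and the summed level of 6 leukocyte genes was 12.9 CPM (counts relative to the scaled library size) in the library labelled JFK, 18.7 in vector, 2.54 in ING5 siRNA and 2.07 in control siRNA. The summed level of 5 fibroblast genes was 68.7, 64.8, 49.2 and 61.1 CPM in the same order. For 4 endothelial genes it was 166 CPM in the library labelled JFK, 144 in vector, 12.03 in ING5 siRNA and 26.4 in control siRNA, most of it from CDH5. The part of such cells in the results was not tested. In bulk RNA, fewer expressing cells and less RNA per cell cannot be told apart.

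Effector transcripts were abundant in the plasmid pair and scarcer in the siRNA pair. Members took 1.18% of all counts in the library labelled JFK, 1.35% in vector, 0.253% in ING5 siRNA and 0.356% in control siRNA. By deposited FPKM (fragments scaled to gene length and depth), which allows genes to be compared, the highest members of the plasmid pair were IFI6, an endoplasmic reticulum protein that restrains flavivirus replication, at 2388 in the library labelled JFK, against 2448 in vector, and ISG15, the ubiquitin-like modifier, at 2482 and 2334 in the same order. Next came the entry inhibitors IFITM3, at 1156 FPKM in the library labelled JFK, against 1325 in vector, and IFITM1, at 693 and 802, and the tetherin gene BST2, whose product holds budding virus at the cell surface, at 627 and 595. In the siRNA pair the order by deposited RPKM (reads scaled in the same way) was another. IFITM3 led, at 332 RPKM in ING5 siRNA and 337 in control siRNA, followed by BST2 at 225 and 218 and IFITM2 at 171 and 200. ISG15 stood at 51.8 RPKM in ING5 siRNA and 85.7 in control siRNA, and IFITM1 at 85.7 and 71.0.

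The same contrast was seen in counts scaled to depth. IFI6 had 1985 CPM in the library labelled JFK, against 1974 in vector, while it had 31.9 in ING5 siRNA and 26.7 in control siRNA. The mitochondrial protein gene IFI27 had 233 CPM in the library labelled JFK, against 222 in vector, while in counts it had 10 in ING5 siRNA and 19 in control siRNA. For these genes both plasmid libraries stood far above both siRNA libraries. Of 48 members measured in either pair, 41 were higher in both plasmid libraries than in both siRNA libraries, an order seen in 47.0% of all genes. At a multiple of at least 10 the count was 8 members, against 2.15% of all genes. They were GBP1, IFI27, IFI6, ISG15, ISG20, MX2, OAS2 and UBE2L6. This multiple was chosen after the values were seen. GBP1, IFI27 and UBE2L6 had a mean normalised count under 20 in the siRNA pair and entered only through the plasmid pair. The same holds for TRIM22 and SP110 among the 41. These members are no support for either count. IFITM2 alone was higher in both siRNA libraries, as were 39.8% of all genes, with 127 CPM in ING5 siRNA and 148 in control siRNA, while it had 109 in the library labelled JFK, with 114 in vector. For EIF2AK2, IFIT5, PARP14, PNPT1, SAMD9L and SP100 the levels of the pairs overlapped. The pairs differ in what was transfected and in how their reads were counted, and these cannot be told apart, so the levels are given as a description of order.

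**Figure D1:**
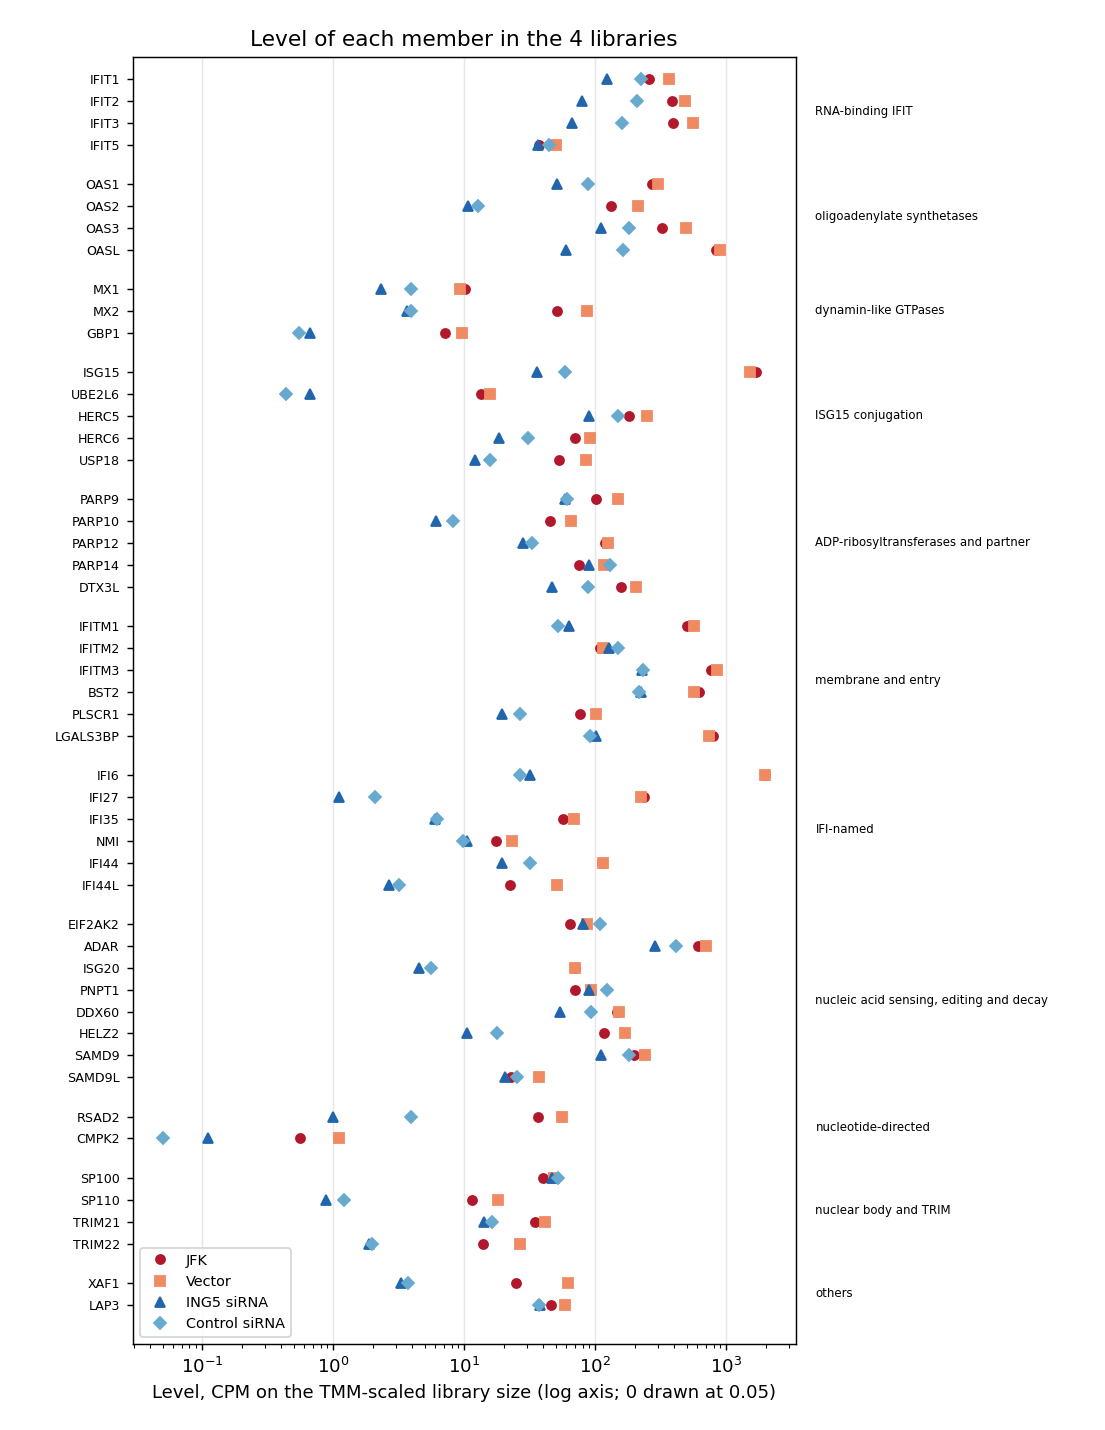
Level of each of the 49 listed members in the 4 libraries, in CPM on a log axis, with members grouped by role from top to bottom and 1 point per library. IFI6, ISG15 and IFI27 stand furthest to the right of their siRNA points, while EIF2AK2, PNPT1, SP100 and IFITM2 have all 4 points close together.

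Effectors were first compared between the library labelled JFK and vector, to see which differ with the plasmid. Members whose mean normalised count reached 20 were counted as measured, and folds are log2 ratios with exact 95% Clopper-Pearson intervals that cover the counting of reads and nothing else. Most effectors stood a little lower: 41 of 48 measured members lay below 0, as did 49.5% of all measured genes, and the median was −0.39, beside 0.00 for all 12107 genes. An interval wholly below 0 was found for 35 members, where 11.2% of all genes had one, and wholly above 0 for 3 members, against 14.3%. At a threshold of 1.5-fold 11 members were lower, against 2.07% of all genes, and 0 were higher, against 1.5%. At 2-fold 2 were lower, against 0.297%. In 24 of the 48 the deposited expected counts were not whole numbers in at least 1 library, as can happen when reads are divided among genes. Among them are the IFITM genes and the pair MX1 and MX2, whose sequences resemble each other. IFIT1, IFIT3, OAS3, RSAD2 and XAF1 are also among them. All 24 are uncertain to that extent, and the source of the fractions was not tested.

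The IFIT and OAS families were lower in all their members. All 4 IFIT genes, whose products bind viral RNA, had intervals below 0, and their summed level was 1068 CPM in the library labelled JFK, against 1460 in vector. IFIT1, which binds RNA lacking cap methylation, had 1819 counts in the library labelled JFK, against 2664 in vector (log2 fold −0.53, interval −0.61 to −0.44), and IFIT3 had 2802 and 4051 (−0.51, −0.58 to −0.44). The smallest difference in this group was that of IFIT2, with 2747 counts in the library labelled JFK, against 3536 in vector (−0.34). Among the oligoadenylate synthetases, which activate the ribonuclease RNase L, OAS2 had 948 counts in the library labelled JFK, against 1544 in vector (−0.68, −0.80 to −0.56) and OAS3 had 2313 and 3548 (−0.59, −0.67 to −0.52). OAS1 lay at −0.14, and OASL, a relative without synthetase activity, had 5988 counts in the library labelled JFK, against 6517 in vector (−0.10), so the group was unequal although all 4 intervals lay below 0.

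GTPases, ISG15 enzymes and ADP-ribosyltransferases held some of the lowest values. MX2, a dynamin-like GTPase that blocks retroviruses, had 365 counts in the library labelled JFK, against 625 in vector (−0.75, −0.94 to −0.56), whereas MX1 had 72 and 68 (interval −0.39 to 0.61) and GBP1 50 and 70 (−1.01 to 0.08). ISG15 itself had 11923 counts in the library labelled JFK, against 11061 in vector (0.13, 0.10 to 0.17). USP18, the protease that removes ISG15 and also damps receptor signalling, had 377 and 613 (−0.68, −0.87 to −0.49). The ligases HERC5 and HERC6 lay at −0.46 and −0.38 and the conjugating enzyme UBE2L6 at −0.25 (−0.66 to 0.15), so the modifier and most of its enzymes stood on different sides of 0. PARP14 had 533 counts in the library labelled JFK, against 847 in vector (−0.64, −0.80 to −0.49), and PARP9 had 722 and 1080 (−0.56, −0.69 to −0.42). PARP10 lay at −0.54 and DTX3L, the ubiquitin ligase that pairs with PARP9, at −0.40, while PARP12 had 850 counts in the library labelled JFK, against 904 in vector, with an interval that spanned 0.

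Membrane genes were unequal, with 2 of 6 intervals above 0, 3 below and 1 that spanned 0. BST2 had 4395 counts in the library labelled JFK, against 4112 in vector (0.12, 0.06 to 0.18) and LGALS3BP, a secreted glycoprotein, 5632 and 5304 (0.11, 0.06 to 0.17). IFITM1 and IFITM3 lay at −0.17 and −0.15, the interval of IFITM2 spanned 0, and the scramblase gene PLSCR1 had 546 counts in the library labelled JFK, against 735 in vector (−0.40). IFI6 had 14187 and 14352 counts (0.01, −0.03 to 0.04). IFI44L had 160 counts in the library labelled JFK, against 373 in vector (−1.19, −1.47 to −0.93), while its neighbour IFI44 had 798 and 831 (−0.03, −0.18 to 0.11). NMI and IFI35, which form a complex, lay at −0.41 and −0.28. IFI27 had 1667 counts in the library labelled JFK, against 1615 in vector (0.07, −0.03 to 0.17). The 10 members with the highest FPKM had a median of −0.05 and none was 1.5-fold lower. The other 38 had a median of −0.41 and held all 11. The 354 measured genes at or above the level of the lowest of these 10 had a median of 0.09. Level and length were not separated, since IFI6, ISG15, IFITM3, IFITM1, BST2 and IFI27 among the 10 are also under 1000 bases. In the siRNA pair the 10 highest by RPKM had a median of −0.37, with 4 at least 1.5-fold lower. The other 33 had a median of −0.43, with 12 lower.

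Nuclease, editing and nuclear body genes were mostly lower. SAMD9L, a restriction factor for poxviruses, had 163 counts in the library labelled JFK, against 268 in vector (−0.69, −0.98 to −0.41), and the helicase gene HELZ2 had 829 and 1228 (−0.54, −0.67 to −0.41). The RNA-activated kinase gene EIF2AK2 lay at −0.43, the mitochondrial exoribonuclease gene PNPT1 at −0.40, SAMD9 at −0.27 and the RNA-editing enzyme gene ADAR at −0.21. The exonuclease gene ISG20 had 497 and 504 counts and the helicase gene DDX60 1045 and 1108, with intervals that spanned 0. RSAD2, for viperin, which makes a chain-terminating nucleotide, had 261 counts in the library labelled JFK, against 402 in vector (−0.60, −0.83 to −0.37). TRIM22, a ubiquitin ligase, had 99 and 192 (−0.93, −1.30 to −0.57), and the nuclear body genes SP110 and SP100 lay at −0.66 and −0.29. TRIM21, a cytosolic antibody receptor, had 249 counts in the library labelled JFK, against 302 in vector (−0.25), and the aminopeptidase gene LAP3 had 327, against 427 (−0.36). XAF1, which promotes apoptosis, was the lowest measured member, with 177 expected counts in the library labelled JFK, against 449 in vector (−1.31, −1.58 to −1.06), and neither count was whole.

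**Figure D2:**
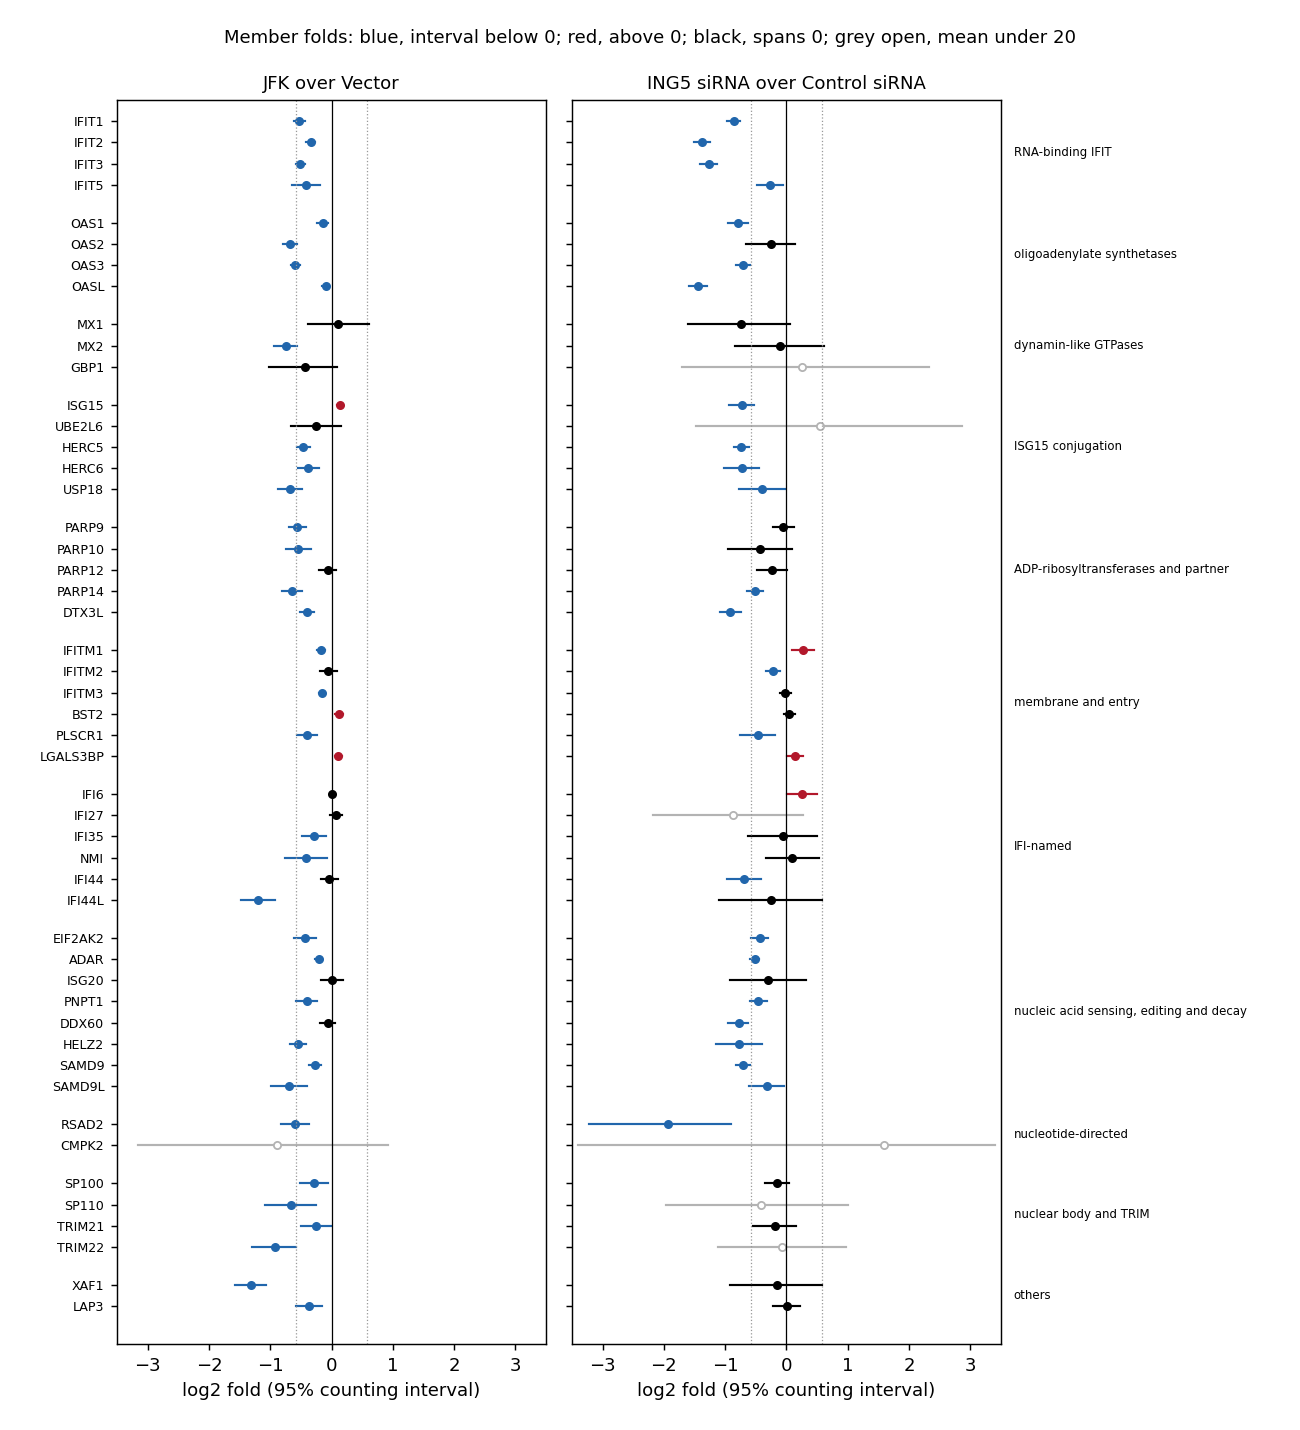
Log2 fold of each member with its 95% counting interval, JFK over Vector on the left and ING5 siRNA over Control siRNA on the right; dotted lines mark 1.5-fold, blue intervals lie below 0, red above, black span 0, and open grey points have a mean under 20 (CMPK2 runs beyond both axis limits on the right). The left panel holds 35 blue members, led by XAF1 and IFI44L, and the right panel 24, led by RSAD2, OASL and IFIT2. In the right panel RSAD2 passed the filter only through its count in control siRNA.

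ING5 siRNA was set against control siRNA to ask which effectors differ with ING5 knockdown. Fewer members had enough reads, 43 of 49, and they again stood lower, with a median of −0.43 beside −0.01 for all 11634 measured genes. Of the 43, 37 lay below 0, against 51.4% of all genes, and 24 had an interval wholly below 0, against 20.6%. Intervals wholly above 0 were found for 3 members, against 18.3% of all genes, and for 1 member under median-of-ratios scaling. At 1.5-fold 16 were lower, against 4.40%, and 0 were higher, against 4.01% (MX1 among the lower ones, on an interval that spanned 0). At 2-fold 4 were lower, against 0.696%, and 0 higher, against 0.765%. RSAD2 passed the filter only through its count in control siRNA; without it 15 of 42 members were 1.5-fold lower, 3 were 2-fold lower and 23 had an interval below 0. In 9 members (USP18, DTX3L, OAS3, PLSCR1, PARP14, EIF2AK2, PARP10, HELZ2 and PNPT1) the ING5 siRNA count was 1.01 to 1.02 times the count that its own RPKM implies. Count and RPKM disagreed for 112 of all 16856 genes in ING5 siRNA, so members held more than their share. In control siRNA they disagreed for 37 genes and 0 members. The cause was not tested.

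RSAD2 had the lowest fold, and OASL, IFIT2 and IFIT3 followed. IFIT2 had 719 counts in ING5 siRNA and 1890 in control siRNA (log2 fold −1.38, interval −1.50 to −1.25). IFIT3 had 601 and 1460 (−1.26, −1.40 to −1.13) and IFIT1 1113 and 2037 (−0.86, −0.96 to −0.75). IFIT5 had 333 and 406 (−0.27), so the group ran over more than 1 log2 unit, and its summed level was 305 CPM in ING5 siRNA and 632 in control siRNA. OASL had 543 counts in ING5 siRNA and 1491 in control siRNA (−1.44, −1.59 to −1.30), OAS1 had 460 and 803 (−0.79, −0.96 to −0.62) and OAS3 993 and 1644 (−0.71, −0.83 to −0.60). OAS2, at 96 and 116 counts, had an interval of −0.66 to 0.15. RSAD2 had 9 counts in ING5 siRNA and 36 in control siRNA (−1.93, −3.22 to −0.90).

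The ISG15 system was lower as well. ISG15 had 323 counts in ING5 siRNA and 540 in control siRNA (−0.72, −0.93 to −0.52), HERC5 had 810 and 1362 (−0.73, −0.86 to −0.61) and HERC6 168 and 282 (−0.73, −1.02 to −0.45). USP18 had 109 and 145 (−0.39, −0.77 to −0.03), and UBE2L6 had 6 and 4 counts, so all 4 measured genes of this system had intervals below 0. Among the ADP-ribosyltransferases and their partner, DTX3L had 420 counts in ING5 siRNA and 802 in control siRNA (−0.92, −1.09 to −0.75) and PARP14 815 and 1180 (−0.52, −0.65 to −0.39). PARP9 had 533 and 559 (−0.05, −0.23 to 0.12), and the intervals of PARP10 and PARP12 spanned 0. DTX3L and PARP9 thus lay apart beyond counting error, although their windows hold the same response element match.

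Helicase and RNA-binding genes followed. DDX60 had 487 counts in ING5 siRNA and 847 in control siRNA (−0.78, −0.95 to −0.62), SAMD9 1004 and 1665 (−0.71, −0.83 to −0.60) and HELZ2 95 and 164 (−0.77, −1.15 to −0.40). ADAR, PNPT1, EIF2AK2 and SAMD9L lay at −0.52, −0.46, −0.43 and −0.32, with intervals below 0, so 7 of 8 genes of this role did, ISG20 being the exception with 41 and 51 counts. IFI44 had 177 counts in ING5 siRNA and 290 in control siRNA (−0.69, −0.97 to −0.42).

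Membrane genes lay on both sides of 0. IFITM1 had 572 counts in ING5 siRNA and 479 in control siRNA (0.27, 0.09 to 0.45), and LGALS3BP had 909 and 835 (0.14). IFI6 had 289 and 245 (0.25), and the lower bounds of LGALS3BP and IFI6 lay just above 0. BST2 had 2016 and 1971 (0.05, −0.04 to 0.14) and IFITM3 2047 and 2102 (−0.02, −0.11 to 0.07), while IFITM2 lay at −0.22 (−0.34 to −0.11) and PLSCR1, with 175 and 245 counts, at −0.47 (−0.76 to −0.18). The summed level of the membrane and entry genes was 758 CPM in ING5 siRNA and 762 in control siRNA. Intervals that spanned 0 were also found for XAF1 (30 counts in ING5 siRNA and 34 in control siRNA), MX1 (21 and 36, likewise), MX2 (33 and 36), IFI44L (24 and 29), IFI35 (54 and 57), NMI (95 and 90), LAP3 (340 and 342), SP100 (421 and 474) and TRIM21 (128 and 148). The interval of MX2 (−0.84 to 0.61) included its fold of −0.75 in the plasmid pair, so a difference of that size was not detectable at this depth. Those of XAF1 (−0.92 to 0.59) and IFI44L (−1.10 to 0.57) did not reach the plasmid pair's folds of −1.31 and −1.19. For XAF1 the plasmid pair's interval (−1.58 to −1.06) lay apart from that of the siRNA pair. For IFI44L the plasmid pair's interval (−1.47 to −0.93) overlapped that of the siRNA pair. Overlap alone does not settle whether the folds differ, and the difference was not tested.

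Members under the filter were few. In the siRNA pair they were IFI27 (10 counts in ING5 siRNA and 19 in control siRNA), TRIM22 (17 and 18), SP110 (8 and 11), GBP1 (6 and 5), UBE2L6 (6 and 4) and CMPK2 (1 and 0). CMPK2, a mitochondrial nucleotide kinase gene next to RSAD2, was also the only listed member under the filter in the plasmid pair, with 4 counts in the library labelled JFK, against 8 in vector.

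**Figure D3:**
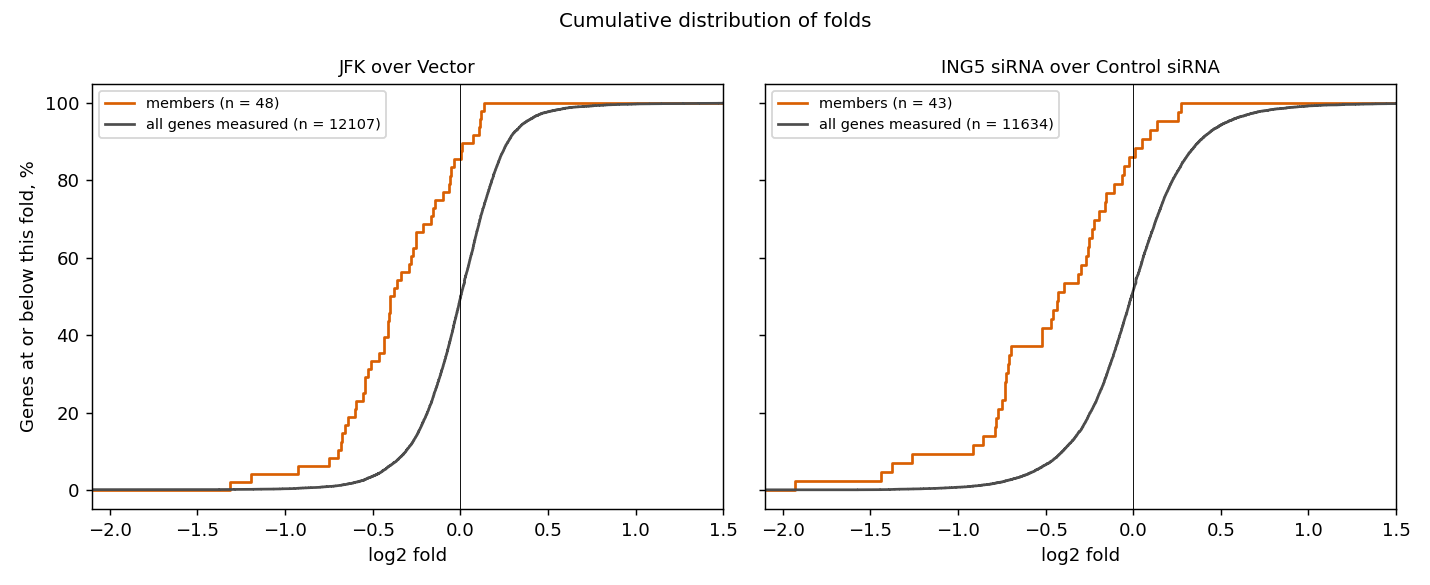
Share of genes at or below each log2 fold, for the measured members and for all measured genes, JFK over Vector on the left (48 members) and ING5 siRNA over Control siRNA on the right (43 members). In both panels the member curve lies left of the curve of all genes, with medians of −0.39 and −0.43 beside 0.00 and −0.01.

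The comparisons, which have separate controls, were then set side by side for the 43 members measured in both. Intervals lay below 0 in both comparisons for 20 members, against 3.94% of 11148 genes, and above 0 in both for LGALS3BP alone, against 2.84%; under median-of-ratios scaling no member was above 0 in both. With whole counts only, 7 members of 20 lay below 0 in both. In 13 members the interval lay below 0 in the plasmid pair only, against 7.62% of all genes. In 4 it did so in the siRNA pair only, against 17.3%, and in 6 in neither, against 71.1%. At 1.5-fold 2 members, OAS3 and RSAD2, were lower in both, against 0.206% of all genes; without RSAD2, which passed the filter only through control siRNA, the count was 1. The sizes of the folds were not alike: across members, which are not independent, Pearson's r was 0.055 and Spearman's rho 0.091 (n = 43), beside 0.058 and 0.025 across all genes.

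The fold was lower under ING5 siRNA, with intervals that do not overlap, for 13 members, against 10.7% of all genes. They were ADAR, DDX60, DTX3L, HERC5, IFI44, IFIT1, IFIT2, IFIT3, ISG15, OAS1, OASL, RSAD2 and SAMD9. Of these, RSAD2 passed the filter only through its count in control siRNA and is no support for the count. OASL showed the largest gap, at −1.44 under ING5 siRNA and −0.10 in the library labelled JFK. The fold was lower in the plasmid pair for 3 members, IFITM1, PARP9 and XAF1, against 8.43% of all genes. ISG15 and IFITM1, 2 of 43 members, had intervals on opposite sides of 0, a share not above the 6.04% of all genes. ISG15 was lower under ING5 siRNA and higher in the library labelled JFK, and IFITM1 the reverse. The plasmid pair fold of ISG15 was 0.09 by FPKM, below its counting interval, on a scale where all genes had a median of −0.04. After the running median of genes of like length was subtracted it was 0.05, and that of IFITM1 was −0.25.

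**Figure D4:**
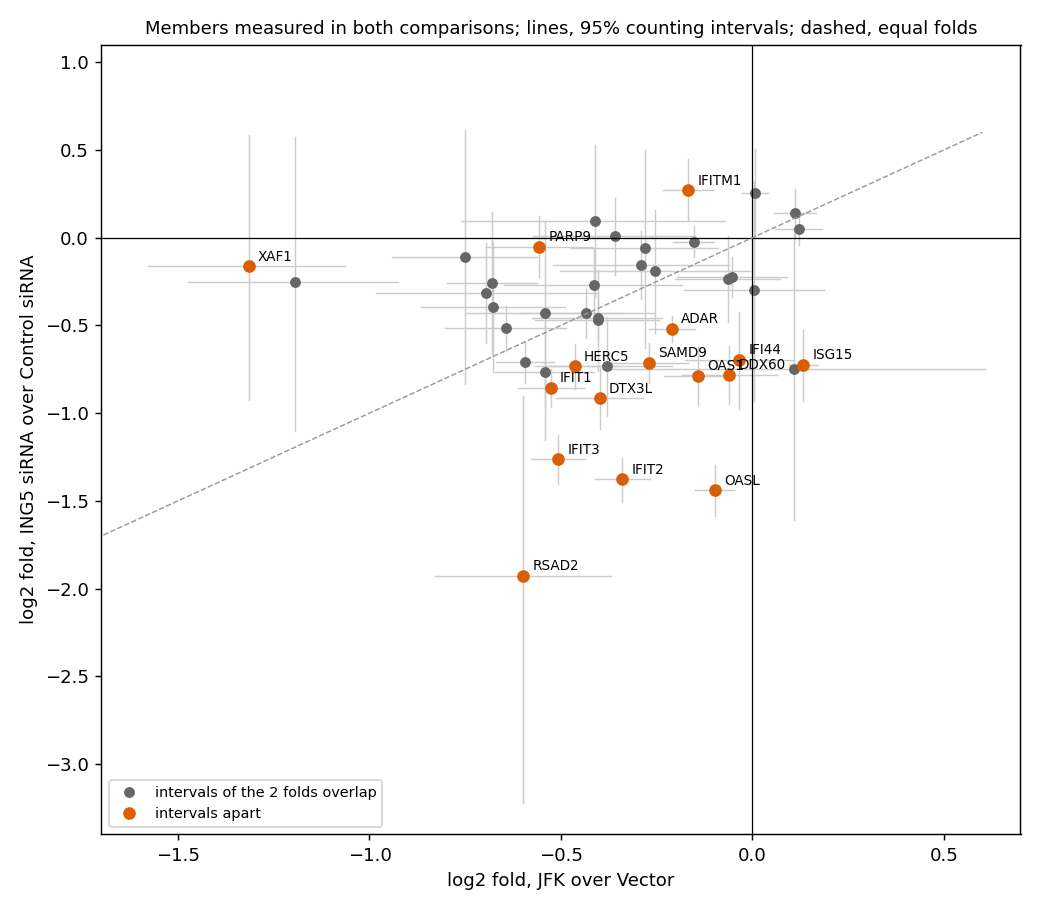
Log2 fold under ING5 siRNA (vertical) against log2 fold in the library labelled JFK (horizontal) for the 43 members measured in both, with 95% counting intervals as grey lines. The 16 orange members have intervals that do not overlap between the comparisons: OASL, IFIT2, IFIT3 and RSAD2 lie well below the line of equal folds, and XAF1, PARP9 and IFITM1 above it.

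Length of the transcript moved with the fold. In the plasmid pair the 8 measured members under 1000 bases (BST2, IFI27, IFI6, IFITM1, IFITM2, IFITM3, ISG15 and ISG20) had a median of 0.01, the 16 members of 1000 to 3000 bases −0.29, and the 24 members over 3000 bases −0.49. All measured genes showed a weaker trend in the same direction, with medians of 0.09, 0.04 and −0.04. Spearman's rho between length and fold was −0.54 over the 48 members and −0.21 over all genes, as a description across genes. In the siRNA pair the member medians in the same order were −0.02, −0.29 and −0.52, and those of all genes 0.02, 0.00 and −0.02. After the running median of genes of like length was subtracted, a step added after the data were seen, the member median was −0.35 in the plasmid pair and −0.40 in the siRNA pair, and the 1.5-fold lower count was 8 and 16. ISG15 lay at 0.05 in the plasmid pair on this scale. The part of length in the differences among members was not tested further.

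**Figure D5:**
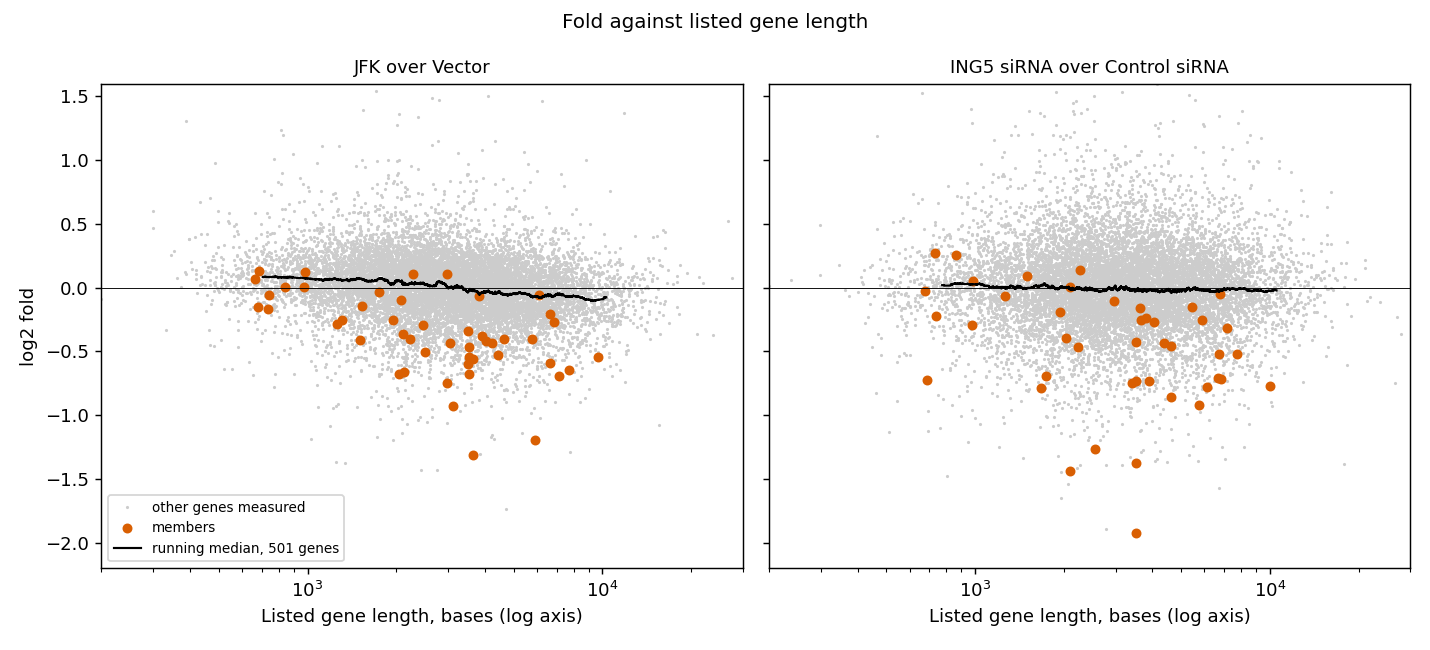
Log2 fold against listed gene length on a log axis, JFK over Vector on the left and ING5 siRNA over Control siRNA on the right, with members in orange, other measured genes in grey and the running median in black; values beyond the axis limits are not drawn. On the left the black line descends with length and all members over 3000 bases lie below 0.

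Genes upstream of the effectors were read from a list of ligands, receptors, kinases, transcription factors, sensors and inhibitors. No interferon gene was measured, and the highest count of any listed ligand was 7, for IFNE in control siRNA. Among the transcription factors, STAT2 had 244 counts in the library labelled JFK, against 341 in vector (−0.46, −0.70 to −0.22), and IRF9 had 363, against 486 (−0.40, −0.60 to −0.20). Under ING5 siRNA STAT2 lay at −0.10 and IRF9 at 0.20, with intervals that spanned 0 for both. IRF3 lay at 0.32 (0.14 to 0.49) in the plasmid pair and at 0.17 (−0.05 to 0.39) in the siRNA pair.

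Of the RNA and DNA sensors and their adaptors, 3 of 8 measured had an interval below 0 in the plasmid pair, against 11.2% of all genes, and 5 of 7 in the siRNA pair, against 20.6%. IFIH1, which senses long double-stranded RNA, was low in both, at −0.90 (−1.07 to −0.73) in the plasmid pair and −0.79 (−1.06 to −0.53) in the siRNA pair. RIGI, the sensor of RNA ends, lay at −0.30 and −0.69 in the same order, and the DNA-pathway adaptor gene STING1 at 0.05 and −0.56. Of 9 receptors and kinases, 2 had an interval below 0 in the plasmid pair, against 11.2% of all genes. They were JAK2 at −0.54 and IFNAR2 at −0.31 (−0.59 to −0.04). Under ING5 siRNA 2 were below, a share close to the 20.6% of all genes, and 3 above, against 18.3%, among them IFNAR2 at 0.38 and JAK2 at 0.44. Of 4 measured inhibitors, 1 had an interval above 0 under ING5 siRNA, a share not far from the 18.3% of all genes. It was SOCS3, an inhibitor of JAK kinases, at 0.48 (0.17 to 0.80). In the plasmid pair SOCS3 lay at 0.00 (−0.24 to 0.25).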

How the data were processed

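Gene tables of 4 libraries were used. The submitters' processing notes name fastp, FastQC, STAR, DESeq2, GRCh37 and hg19, without roles; the read counter is not given in the sources used. The plasmid pair holds deposited expected counts and deposited FPKM, and the siRNA pair deposited counts and deposited RPKM, per the file headers; both length-scaled columns use 0.01 for genes without reads. Identifiers were matched to symbols through RefSeq (16900 and 16767 matched). Of the repeated identifiers, 2 in the siRNA tables were left out. Counts were scaled with TMM factors (trims 0.3 and 0.05), 0.5 was added before the log2 ratio, and expected counts were rounded for the exact 95% intervals, which cover counting error only; 3 reads equal 0.327 to 0.420 CPM. A count model such as edgeR's needs replicates, so no p-value is given. The intervals were also run on simulated counts drawn with counting error alone. That run cannot show how they would cover spread between replicates. Members and lists were chosen with earlier results of these data known. Values in each library were given for the 12 members per comparison whose interval bound lay farthest from 0, the extremes of each role, members on opposite sides of 0, members under the filter and the 5 highest; the others are given by fold. Some genes of the upstream and marker lists are not reported here. Alternatives changed the scaling, filter, offset, unit and genes. Python 3.11.15, numpy 2.4.6, pandas 2.3.3, scipy 1.17.1 and matplotlib 3.10.9 were used.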

Additional observations from a re-analysis of the deposited data

How the results depend on the processing

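Across 9 alternatives the member median kept its sign, from −0.43 to −0.31 in the plasmid pair and from −0.46 to −0.26 in the siRNA pair. The count of members at least 1.5-fold lower ran from 5 to 12 and from 13 to 17. With whole counts only, which leaves 24 members in the plasmid pair, 5 were 1.5-fold lower there, 16 had intervals below 0 and 7 lay below 0 in both comparisons. Leaving out genes with unequal count and RPKM, 34 members remained and 12 lay below 0 in both. Under median-of-ratios scaling the members above 0 under ING5 siRNA became 1 and those above 0 in both became 0; the cause was not tested. With no filter 1 member, CMPK2, was 1.5-fold higher under ING5 siRNA, on 1 read against 0. Of 215 values for 22 members, 212 stayed within their interval, 3 moved (ISG15 and IFITM1 in the plasmid pair) and 1 changed sign, that of DDX60 in the plasmid pair, whose interval spanned 0 (0.02 with the length trend removed). No paired analysis was possible because each group has 1 library, and for the same reason no replicate could be left out. Counting limits the scarcest members, of which 6 in the siRNA pair and 1 in the plasmid pair were under the filter.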

Other observations

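Members that lie within 100 kb of each other in the RefSeq annotation form 9 clusters with 22 members. The order of the folds within a cluster was not always the same in both comparisons. OAS1, OAS3 and OAS2 lay at −0.79, −0.71 and −0.26 under ING5 siRNA, where the intervals of OAS1 and OAS2 overlapped, and at −0.14, −0.59 and −0.68 in the library labelled JFK, where those of OAS1 and OAS2 did not. SAMD9 and SAMD9L lay at −0.71 and −0.32 under ING5 siRNA, with intervals that overlapped, and at −0.27 and −0.69 in the library labelled JFK, with intervals that did not. IFI44 and IFI44L lay at −0.69 and −0.25 under ING5 siRNA and at −0.03 and −1.19 in the library labelled JFK, and only in the second case did their intervals not overlap. Where intervals overlapped, the folds may still differ beyond counting error, which was not tested. HERC5 and HERC6 were close in both, at −0.73 for each under ING5 siRNA and at −0.46 and −0.38 in the library labelled JFK. Reads shared between such relatives could not be separated.

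Some classical effectors were scarce where others were abundant. In vector, where ISG15 stood at 2334 FPKM and IFI6 at 2448, MX1 stood at 3.09, GBP1 at 3.16 and CMPK2 at 0.68. CMPK2 had 8 counts there while its neighbour RSAD2 had 402. The siRNA pair gave a like picture for CMPK2, with 1 count in ING5 siRNA and 0 in control siRNA, beside 9 and 36 for RSAD2.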
